A study of Mus musculus with 29 samples.

Results

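The genes described here were Zbp1 and 6 genes that act with it in cell death or hold it in check. They were chosen by name (Zbp1, Ripk1, Ripk3, Mlkl, Casp8, Fadd and Adar), and each of the 7 symbols matched 1 of the 48709 Ensembl gene identifiers in the count tables. The mouse data were 29 bulk RNA-seq libraries from 3 experiments, each of which compared anti-miR-99b, a locked nucleic acid oligonucleotide that blocks the microRNA miR-99b-5p, with the negative control oligonucleotide sc-control. In the first experiment, male C57BL/6J mice aged 3 months received either oligonucleotide in lipid nanoparticles in the prefrontal cortex (PFC) by bilateral injection, and the PFC was taken 5 days later (3 mice per group, 1 library per mouse). In the second, microglia cultured from CD1 pups of postnatal day 1, grown with conditioned medium of L929 cells, were treated for 2 days (4 libraries per group). In the third, microglia treated in the same way were moved onto cortical neurons of CD1 embryos of day 17.5, and RNA of the whole co-culture was sequenced (7 anti-miR-99b and 8 sc-control libraries). For the cultures, no source used here says whether the libraries came from separate preparations, so that their p-values measure only the spread between these libraries.

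ZBP1 is a sensor of nucleic acids in the left-handed Z form, and it is known for setting off cell death in virus infection and inflammation. Through a short shared motif it binds the kinase RIPK3, which phosphorylates MLKL, the protein that breaks the cell membrane in necroptosis. RIPK1 uses the same motif, and together with the adaptor FADD and the initiator caspase CASP8 it can lead to apoptosis instead, or keep necroptosis in check. ADAR edits double-stranded RNA and has an interferon-inducible isoform that carries the same kind of Z-binding domain as ZBP1 and holds ZBP1 back. Zbp1 itself is known as a gene that interferon induces, and microglia, the macrophages of the brain, express many genes of this kind.

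The mature miR-99b-5p (GRCm38, chr17:17830194-17830215, plus strand, from RefSeq) is shown because it is the molecule that the treatment blocks. It stands beside the other mouse microRNAs of its seed family, with bases 2 to 8, the seed, in capitals.
mmu-miR-99b-5p: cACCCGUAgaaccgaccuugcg
mmu-miR-99a-5p: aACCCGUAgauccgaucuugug
mmu-miR-100-5p: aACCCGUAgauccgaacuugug
The seed ACCCGUA is the same in all 3. The longest annotated 3′ UTR of each of the 7 genes was searched on its own strand for the complement of the seed (TACGGGT), for the form with an A opposite base 1 (ACGGGTA) and for the 6 bases that these forms share (ACGGGT). These UTRs ran from 202 bases in Ripk3 to 4365 bases in Ripk1, and that of Zbp1 had 605 bases. None of them held any of these strings, which says only that these letters are not in these UTRs. The paper tested the Zbp1 3′ UTR in a luciferase reporter. It reports that the activity fell with a miR-99b-5p mimic, but not when the seed region was mutated. Of 21037 mouse genes with a 3′ UTR, 1.1% held the first, 1.04% the second and 5.47% the third.

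Before the treatment is considered, the level of the 7 genes differed between the experiments by far more than between libraries of a group. Levels are CPM, counts relative to the library total after scaling by TMM factors, divided by the exon length of the gene in kilobases where genes are compared with each other. In microglia with sc-control, Casp8 was the highest of the 7 at 33.2 ± 1.23 CPM per kilobase (SD, n = 4). Adar followed at 12.1 ± 0.72, Ripk1 at 9.01 ± 0.35, Ripk3 at 5.75 ± 0.71, Fadd at 4.39 ± 0.30, Zbp1 at 3.24 ± 0.59 and Mlkl at 1.40 ± 0.25 CPM per kilobase. The values of neighbours in this order were further apart than their SD in each case. In the PFC with sc-control the order was another one. Adar, the editing enzyme, was highest at 24.5 ± 1.39 CPM per kilobase (n = 3), ahead of Casp8 at 1.43 ± 0.13 and Fadd at 0.679 ± 0.146. Ripk1 (0.503 ± 0.106) and Zbp1 (0.442 ± 0.112 CPM per kilobase) differed by less than their spread, and Mlkl (0.260 ± 0.087) and Ripk3 (0.137 ± 0.015) were lowest. In the co-culture with sc-control, Adar stood at 17.7 ± 0.55 CPM per kilobase (n = 8), Fadd at 1.09 ± 0.08, Ripk1 at 0.805 ± 0.037 and Casp8 at 0.498 ± 0.073. Zbp1 (0.132 ± 0.037) and Ripk3 (0.113 ± 0.035) could not be separated from each other there, and Mlkl was lowest at 0.0588 ± 0.0275 CPM per kilobase. The plot of the level of the 7 genes by library shows all of these values.

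**Figure D1:**
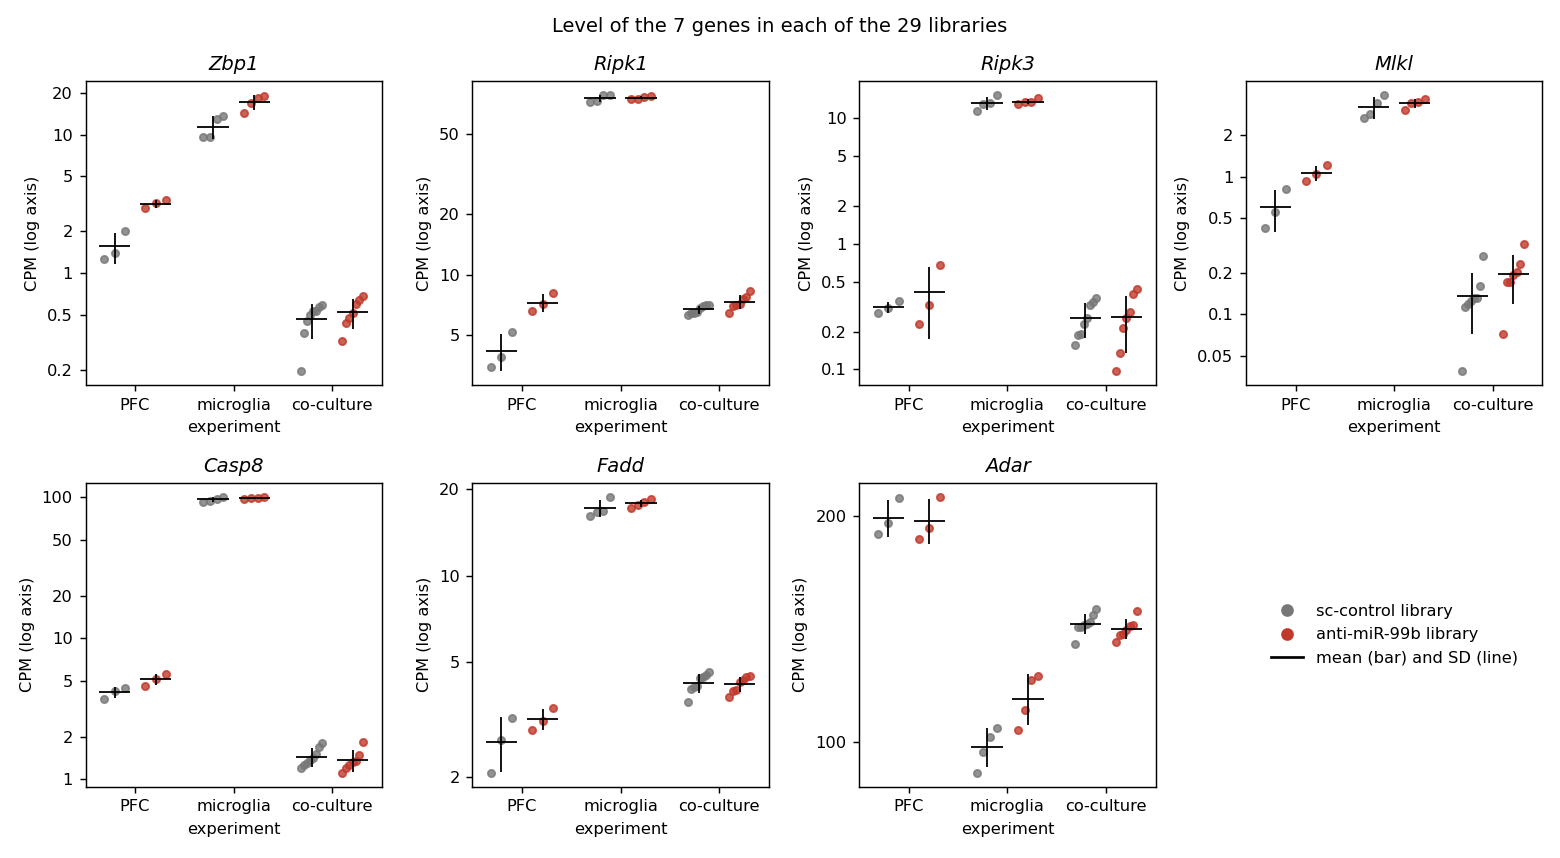
Level of each of the 7 genes (CPM, log axis) in each of the 29 libraries by experiment, with grey points for sc-control, red points for anti-miR-99b, the bar for the group mean and the line for its SD. All genes but Adar are highest in microglia, and the red points of Zbp1 lie above the grey ones in the PFC (lowest 2.93 against highest 2.01 CPM) and in microglia (lowest 14.3 against highest 13.6 CPM).

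These differences were tested between the sc-control groups in a joint fit of all 29 libraries with edgeR's quasi-likelihood test (adjusted p under 0.05 and a log2 fold change beyond 1). Of the 7 genes, 6 were higher in microglia than in PFC, beside 26.4% of the 18963 genes tested. Their log2 differences ran from 2.63 ± 0.19 (SE) for Mlkl to 5.60 ± 0.18 for Ripk3. The same 6 were lower in the co-culture than in microglia, beside 24.1% of genes, and here the log2 difference ran from -2.21 ± 0.06 for Fadd to -6.24 ± 0.06 for Casp8. Adar was the exception in both contrasts, in which 37.4% of genes were called lower in microglia and 35.3% higher in the co-culture, with a log2 difference of -0.78 ± 0.05 between microglia and PFC and of 0.35 ± 0.04 between co-culture and microglia. Between co-culture and PFC, 3 of the 7 were lower in the co-culture, beside 21% of genes: Casp8 (log2 difference -1.45 ± 0.10), Zbp1 (-1.74 ± 0.23) and Mlkl (-2.09 ± 0.30). Fadd (0.73 ± 0.10, adjusted p = 2.33e-08) and Ripk1 (0.71 ± 0.08, adjusted p = 1.47e-09) were higher in the co-culture by less than the limit of 1, beside 15.4% of genes higher and past it, and Adar was lower by less than the limit (-0.43 ± 0.04). Ripk3 differed by -0.22 ± 0.35 there (adjusted p = 0.56). Mouse strain, age and preparation differ with the experiment and cannot be told apart from the tissue or culture.

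The markers of the labelled cell types were high in each experiment, and those of microglia give a scale for these levels. The 12 microglia markers, among them Cx3cr1, P2ry12 and Tmem119, summed to between 12607 and 13173 CPM in the 8 microglia libraries, to between 432 and 594 CPM in the PFC and to between 122 and 160 CPM in the co-cultures. The 10 neuron markers lay between 130 and 145 CPM in the microglia libraries, and between 8073 and 10163 CPM in the PFC and co-culture libraries. In one scaling over all libraries, the summed microglia markers of the sc-control PFC reached 3.20% of their level in sc-control microglia. Casp8 at 3.64%, Ripk1 at 4.73% and Ripk3 at 2.01% of their microglia level lay near that share, whereas Zbp1 (11.6%), Fadd (13.2%) and Mlkl (15.7%) lay above it, and Adar stood at 171%. In the sc-control co-culture the markers reached 0.896% of their microglia level, and Casp8 (1.30%) and Ripk3 (1.70%) were the closest to it. Zbp1 (3.57%), Mlkl (3.65%), Ripk1 (7.78%), Fadd (21.6%) and Adar (127%) were further above. These shares are a description of group means. In bulk libraries, fewer cells of a type and less RNA per cell cannot be told apart.

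**Figure D2:**
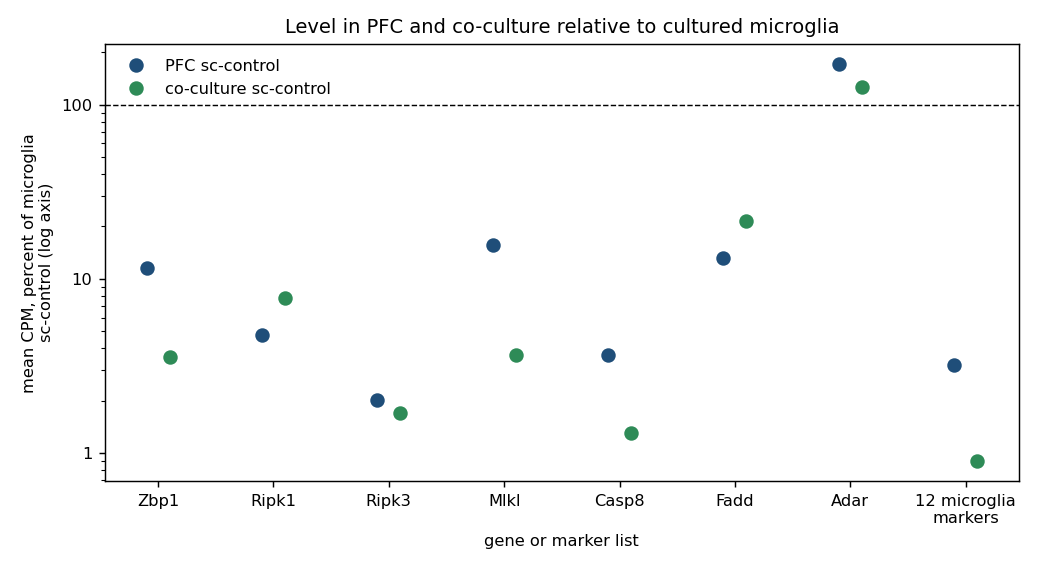
Mean CPM of each gene, and of the 12 summed microglia markers, in sc-control PFC (blue, n = 3) and sc-control co-culture (green, n = 8) as percent of the mean in sc-control microglia (n = 4, dashed line at 100), on a log axis. Casp8 and Ripk3 lie within a few percent like the markers (3.20% in PFC, 0.896% in co-culture), and Adar is the gene above the dashed line in both.

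Zbp1, the sensor, was higher with anti-miR-99b in microglia. The sc-control libraries 2, 3, 4 and 6 held 12.9, 13.6, 9.68 and 9.57 CPM of Zbp1, and the anti-miR-99b libraries 1, 3, 4 and 5 held 19.1, 14.3, 16.9 and 18.5 CPM. The groups did not overlap, as in 1.65% of the 14953 genes tested with anti-miR-99b higher, although anti-miR-99b library 3 came close to sc-control library 3. Zbp1 rose 1.52-fold (log2 fold change 0.61 ± 0.10 SE, edgeR adjusted p = 0.0106), and the exact permutation test of the 2 group means gave p = 0.0286, which is the smallest p that 4 against 4 libraries allow (adjusted over 21 such tests 0.3). The sc-control libraries fell into 2 levels that went with the sequencing lane given in the library names. In lane 5 the mean was 16.7 CPM with anti-miR-99b (n = 2) and 13.2 CPM with sc-control (n = 2), and in lane 6 it was 17.7 against 9.62 CPM (n = 2 each). The direction was thus the same in each lane and the ratio larger in lane 6 (1.84 against 1.26).

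Adar, the editing enzyme, was the other of the 7 genes that passed the test in microglia. The sc-control libraries held 104, 101, 97.0 and 90.8 CPM of Adar and the anti-miR-99b libraries 122, 103, 110 and 121 CPM, so that anti-miR-99b library 3 lay within the range of sc-control. Adar rose 1.16-fold (log2 fold change 0.22 ± 0.05, edgeR adjusted p = 0.0405). In lane 5 the means were 113 and 103 CPM and in lane 6 they were 115 and 93.9 CPM. The count is of the whole gene, so that it does not tell the interferon-inducible isoform from the constitutive one. Adar shares 1365 exon bases with Chrnb2 on the opposite strand, and the strand setting of the counting is not given in the sources used here. Chrnb2 stood at 4.75 ± 0.54 CPM with sc-control and at 4.83 ± 0.38 CPM with anti-miR-99b in the microglia (SD, n = 4). With sc-control it was higher in the PFC (66.5 ± 3.08 CPM, n = 3) and in the co-culture (90.7 ± 3.07 CPM, n = 8). The limit of the shared bases thus bears on the levels of Adar there as well, and its part in them was not tested.

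The kinases, the effector and the apoptosis arm did not pass the test in microglia. Ripk1 held 77.5, 77.8, 72.9 and 72.4 CPM with sc-control and 77.0, 74.2, 74.7 and 76.0 CPM with anti-miR-99b. Its log2 fold change was 0.0080 ± 0.0332, with a 95% interval from -0.057 to 0.073. Ripk3, the kinase that ZBP1 binds, held 15.3, 12.9, 11.3 and 13.3 CPM with sc-control and 13.3, 12.9, 14.4 and 13.3 CPM with anti-miR-99b. These ranges lie inside each other, and the log2 fold change of 0.044 ± 0.071 has an interval from -0.096 to 0.184. Mlkl, the executor of necroptosis, lay between 2.66 and 3.95 CPM with sc-control and between 3.07 and 3.66 CPM with anti-miR-99b (log2 fold change 0.10 ± 0.12, interval from -0.138 to 0.34). For Casp8 (0.039 ± 0.031) and the adaptor Fadd (0.066 ± 0.054) the log2 fold changes were small too, with upper bounds of 0.1 and 0.172. Together, 2 of the 7 genes were called higher and 0 lower, beside 0.435% of the 14953 genes tested called higher and 0.0535% called lower. Whether these genes passed depended in part on which libraries were in the fit. Without sc-control replicate 4 or without anti-miR-99b replicate 5, 0 of the 7 genes passed (adjusted p = 0.116 and 0.12 for Zbp1, 0.275 and 0.347 for Adar). Over all genes tested, these fits called 0 and 2 higher and 2 and 3 lower, beside 65 and 8 with all libraries. Without sc-control replicate 6 or anti-miR-99b replicate 1, Zbp1 passed (adjusted p = 0.0887 and 0.0601) and Adar did not (0.262 and 0.186). Those fits called 6 and 11 of all genes higher and 3 lower in each. Zbp1 was called in 14 of the 16 alternatives and Adar in 11. Over these the adjusted p of Zbp1 ran from 2.81e-19 to 0.12 with log2 fold changes from 0.43 to 0.70. The adjusted p of Adar ran from 2.18e-08 to 0.347, with log2 fold changes from 0.10 to 0.26. For both genes the lowest adjusted p came from the fit with no filter on low counts.

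**Figure D3:**
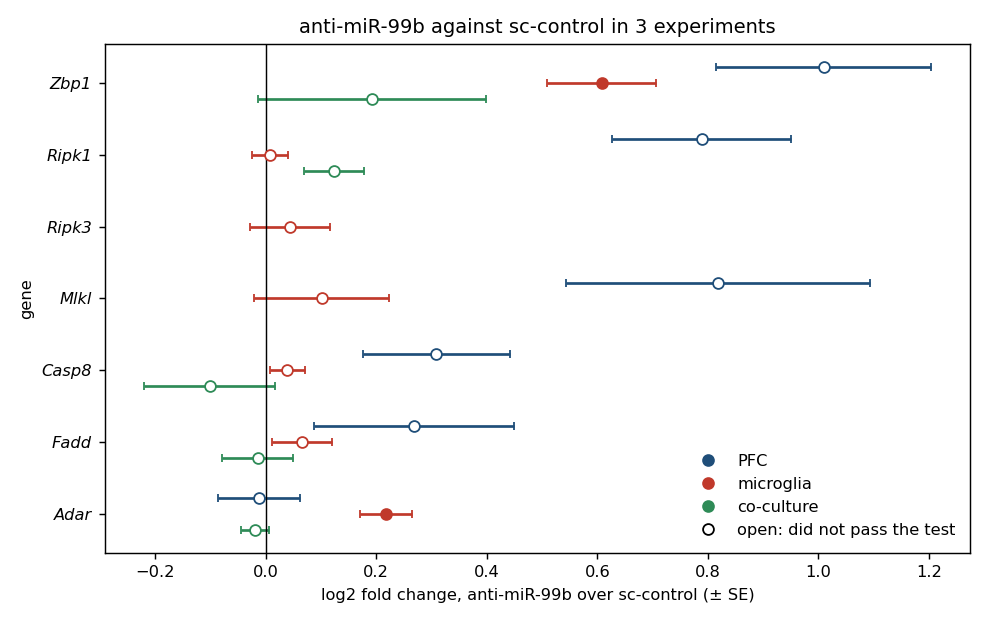
log2 fold change (x axis, anti-miR-99b over sc-control, with SE bars) of each gene (y axis) in PFC (blue), microglia (red) and co-culture (green), with filled points for genes that passed the test. Zbp1 (0.61) and Adar (0.22) in microglia are filled, Ripk1 lies at 0.79 in the PFC and near 0 in microglia, and Ripk3 in PFC and co-culture and Mlkl in co-culture are not drawn, since their counts were too low to be tested.

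In the PFC, 4 of the 7 genes had higher levels in all 3 anti-miR-99b mice than in any sc-control mouse. For Zbp1 the levels were 3.19, 2.93 and 3.35 CPM (replicates 1, 2 and 3) against 1.40, 1.27 and 2.01 CPM (replicates 2, 3 and 4), which is 36 to 102 counts per library. Its log2 fold change of 1.01 ± 0.19 had an adjusted p of 0.197 in edgeR's test and did not pass. Ripk1, the kinase at the branch between survival, apoptosis and necroptosis, showed the same picture with 8.09, 6.58 and 7.14 CPM against 3.49, 3.91 and 5.18 CPM. The lowest anti-miR-99b mouse thus stood well above the highest sc-control mouse. Its log2 fold change was 0.79 ± 0.16 (1.73-fold, adjusted p = 0.234). Mlkl held 0.939, 1.22 and 1.05 CPM against 0.559, 0.423 and 0.816 CPM, at 12 to 34 counts per library (log2 fold change 0.82 ± 0.28, adjusted p = 0.587). Casp8, the initiator caspase, held 5.55, 4.61 and 5.16 CPM against 3.71, 4.23 and 4.43 CPM (log2 fold change 0.31 ± 0.13, adjusted p = 0.649). For all 4 of these genes the exact permutation test gave p = 0.1, the smallest that 3 against 3 mice allow. Groups that did not overlap, with anti-miR-99b higher, were found in 7.52% of the 17364 genes tested, and with anti-miR-99b lower in 5.81%.

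The other 3 genes overlapped between the groups in the PFC. Fadd held 3.14, 3.47 and 2.93 CPM with anti-miR-99b and 2.68, 3.21 and 2.07 CPM with sc-control (log2 fold change 0.27 ± 0.18). Adar, at 186 to 212 CPM with anti-miR-99b and 189 to 211 CPM with sc-control, had a log2 fold change of -0.012 ± 0.074 and an interval from -0.158 to 0.133, and the sign turned to 0.026 with upper-quartile factors. Ripk3 had only 7 to 19 counts per library, at 0.327, 0.679 and 0.230 CPM against 0.307, 0.282 and 0.350 CPM. It failed the filter on low counts, and any difference was not detectable at this depth. Of the 6 genes tested in the PFC, 0 passed the threshold (adjusted p under 0.1 and a log2 fold change beyond 0.2), beside 0.0864% of all genes tested called higher and 0% called lower by edgeR. At an unadjusted p under 0.05 there were 4 of the 6, all higher, beside 5.17% of all genes tested that were higher and 2.47% that were lower. DESeq2's Wald test called Zbp1 (adjusted p = 0.0288) and Ripk1 (0.0138) higher, among 85 genes higher and 8 lower in all.

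Whether Zbp1 and Ripk1 passed in the PFC depended on the processing and on 1 mouse. Both were called higher in 6 of 14 alternatives. These were DESeq2, no filter on low counts, the lane block, the replicate block, the RUVs factor and the fit without sc-control replicate 4. The adjusted p ran from 1.5e-05 to 0.954 for Zbp1 and from 2.82e-05 to 0.97 for Ripk1. Both lowest values came from the replicate block, which keeps only replicates 2 and 3 of each group, and these numbers did not pair the libraries. With the sequencing lane as a block the adjusted p was 0.0501 for Zbp1 and 0.0769 for Ripk1. The log2 fold change kept its direction in all 14, from 0.89 to 1.24 for Zbp1 and from 0.67 to 0.97 for Ripk1. Sc-control replicate 4 had the highest level of Zbp1, Ripk1, Mlkl and Casp8 in its group, and without it the log2 fold change was 1.24 for Zbp1 (adjusted p = 0.0225) and 0.97 for Ripk1 (adjusted p = 0.0236). That fit called 195 of all genes higher and 6 lower, beside 15 and 0 with all mice. In lane 6 (n = 2 per group) Zbp1 stood at 3.06 against 1.33 CPM and Ripk1 at 7.33 against 3.70 CPM. In lane 7, which held 1 mouse per group, the values were 3.35 against 2.01 CPM and 7.14 against 5.18 CPM. Among the genes that overlap Ripk1 in the annotation, Serpinb6a shares 241 exon bases on the opposite strand and stood at 29.4 ± 0.99 against 29.04 ± 0.60 CPM (SD, n = 3), and the pseudogene Gm17084, with 511 shared exon bases, had at most 4 counts in any PFC library.

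The summed microglia markers of the PFC lay between 527 and 594 CPM with anti-miR-99b and between 432 and 579 CPM with sc-control, and 11 of the 12 had a log2 fold change above 0, with a median of 0.29 and 0 calls. Over all genes tested the median was 0.0025. The 20 interferon-stimulated genes lay at 263 to 377 CPM against 143 to 245 CPM when summed, all 20 were above 0, and 1 was called (median log2 fold change 0.90). Of the 9 blood cell markers, 5 were tested, all 5 were above 0, and their sum lay at 49.8 to 93.9 against 56.3 to 69.8 CPM. The 4 fibroblast markers summed to 50.6 to 53.5 against 38.8 to 49.6 CPM, which did not overlap. The part of these lists in the values of Zbp1, Ripk1 and Mlkl was not tested.

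In the co-culture, 0 of the 5 genes with enough counts passed edgeR's test (adjusted p under 0.05 and a log2 fold change beyond 0.1), beside 0.846% of the 16193 genes tested called higher and 0.556% called lower. At an unadjusted p under 0.05 there was 1, which was higher, beside 6.4% of all genes tested, and DESeq2 called 0. Zbp1 had 6 to 19 counts per library, with a lowest, median and highest level of 0.322, 0.516 and 0.681 CPM with anti-miR-99b and 0.196, 0.516 and 0.589 CPM with sc-control. The medians were close to each other. The log2 fold change of 0.19 ± 0.21 had an interval from -0.211 to 0.596, which overlaps the interval of Zbp1 in microglia (0.415 to 0.801). Ripk1 reached 6.47, 7.15 and 8.29 CPM (lowest, median, highest) with anti-miR-99b and 6.28, 6.68 and 7.07 CPM with sc-control. It was the gene with an unadjusted p under 0.05 (log2 fold change 0.12 ± 0.05, edgeR adjusted p = 0.319), and the exact permutation test gave p = 0.0224 (adjusted over 21 tests 0.3). Its mean was higher with anti-miR-99b in each of the 4 lanes, with ratios from 1.03 to 1.12. Lanes 5 and 6 held only 1 anti-miR-99b library each, against 3 and 1 with sc-control. Lanes 4 and 7 held 2 and 3, against 2 in each.

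Adar in the co-culture lay between 136 and 149 CPM with anti-miR-99b (median 141) and between 135 and 150 CPM with sc-control (median 143), with a log2 fold change of -0.020 ± 0.025. Its interval ran from -0.068 to 0.029, and that of Adar in microglia from 0.126 to 0.309. The test of the difference between these effects, given below, did not pass. Casp8 lay between 1.11 and 1.83 CPM (median 1.33) against 1.20 and 1.80 CPM (median 1.39), and Fadd between 3.80 and 4.48 CPM (median 4.29) against 3.65 and 4.64 CPM (median 4.27). All 3 overlapped over almost their whole range. Ripk3 (3 to 13 counts) and Mlkl (1 to 9 counts) were too low to be tested. Mlkl had a median of 0.193 CPM with anti-miR-99b and of 0.127 CPM with sc-control, and the exact permutation test gave p = 0.123. Microglia markers were higher in the same co-cultures, with 138 to 160 CPM against 122 to 151 CPM when summed, 5 of 12 called higher and a median log2 fold change of 0.19. The summed interferon-stimulated genes lay at 151 to 190 against 115 to 180 CPM, with 2 of 20 called higher. Their part in the values was not tested.

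Ripk1 was the gene of the 7 for which a test of the difference between experiments passed, which does not mean that its difference was the largest. Mlkl, for example, had log2 fold changes of 0.82 ± 0.28 in the PFC and 0.10 ± 0.12 in microglia, and its difference did not pass. In the joint fit, the log2 effect of anti-miR-99b on Ripk1 was lower in microglia than in PFC by -0.76 ± 0.11 (edgeR adjusted p = 0.000224), and lower in the co-culture than in PFC by -0.67 ± 0.12 (adjusted p = 0.00185). Of all 18963 genes, 0.364% and 0.559% were called lower in these contrasts. Both differences were called in 6 alternatives with another test, scaling, filter or fit. Added after seeing the data, the joint fit without each of the 14 PFC and microglia libraries in turn called both each time, with log2 differences from -0.95 to -0.63 (adjusted p at most 0.00619) and from -0.85 to -0.54 (adjusted p at most 0.0335). The joint fit gives all groups one spread per gene. When separate fits were set against each other instead, so that each experiment kept its own, both differences of Ripk1 were called as well. That comparison used a normal distribution, which makes no allowance for the few PFC mice behind the SE. In its own PFC fit the SE of Ripk1 was 0.16, larger than the 0.11 and 0.12 of the joint differences. The joint adjusted p-values thus rest on a smaller spread than the PFC mice alone gave. The joint fits without 1 library also gave all groups one spread per gene. In its own edgeR fit in the PFC, Ripk1 did not pass (adjusted p = 0.234). The effect on Zbp1 was not shown to differ, with -0.39 ± 0.22 between microglia and PFC (adjusted p = 0.495), -0.82 ± 0.32 between co-culture and PFC (adjusted p = 0.199) and -0.43 ± 0.27 between co-culture and microglia (adjusted p = 0.942). The effect on Adar was higher in microglia than in PFC by 0.25 ± 0.07 (adjusted p = 0.122) and lower in the co-culture than in microglia by -0.26 ± 0.06 (adjusted p = 0.102), and neither passed. Between co-culture and microglia, 0.0686% of genes were called higher and 0.0158% lower, and 0 of the 7 genes were among them. With no filter on low counts both of these were called. In the comparison of the separate fits, without PFC anti-miR-99b replicate 1 and without microglia anti-miR-99b replicate 3 the second was called, and without PFC anti-miR-99b replicate 3 the first was.

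The promoters of these genes were searched for the letters of an interferon-response motif, as a description. In the RefSeq windows (GRCm38.p6) from 250 bases before to 50 bases after a gene start, 6 of the 7 genes matched, with 9 windows, and Zbp1 did not. The letters searched on both strands were a pair of GAAA with 2 free bases between them, the core of the element that interferon-activated factors bind, and 3.44% of all 32851 windows held it. Among the 9 windows, 1 did, which belongs to Ripk1 (chr13:34002624-34002923, plus strand), with the match from 5 bases before the gene start. A shorter form, GAAA and GAA with 2 free bases between them, was added after the windows had been read, and 8.56% of all windows held it. It overlaps the first form in Ripk1 and was also found in Ripk3 (chr14:55788808-55789107, minus strand) and at 2 places of 1 of the 3 Adar windows (chr3:89730468-89730767, plus strand). The stretches are printed with the match in capitals.
Ripk1: aacgttcccgGAAATCGAAAagcgcggaac
Ripk3: cctcttatttGAAAGGGAAgttgtgaagt
Adar, 249 bases before the start: gGAAAAGGAActtcctcaca
Adar, 34 bases after the start: tcaaggaaacGAAAGTGAActctgggg
The windows of Casp8, Fadd and Mlkl held neither form. A match is a description of these letters and not a site.

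The levels of Zbp1 also varied between libraries of one group, and this variation can be compared across all 3 experiments because the group means are taken out. With each gene as log2(CPM + 0.5) minus its mean in its own group, Zbp1 and the mean of the 20 interferon-stimulated genes had a Pearson r of 0.775 over the 29 libraries, and r was 0.957 among the 8 microglia, 0.87 among the 6 PFC and 0.717 among the 15 co-culture libraries. Sc-control replicate 4 of the PFC was 0.30 above its group mean for Zbp1 and 0.47 above for the interferon-stimulated genes. Of the 13649 genes tested in all experiments, the 5 most like Zbp1 were Mettl6 (r = 0.801), Irgm1 (0.781), Usp18 (0.774), Gm6548 (0.765) and Gm20559 (0.755). Usp18, which removes ISG15 from proteins, is in the list of interferon-stimulated genes, and Irgm1 is an interferon-induced GTPase. In microglia, both were called higher, with log2 fold changes of 0.66 ± 0.13 and 0.29 ± 0.06 (edgeR adjusted p = 0.0272 and 0.0322), while Mettl6, the tRNA methyltransferase with the highest r, had -0.041 ± 0.044. Among the partners, Mlkl had the highest r with Zbp1 (0.491), followed by Ripk1 (0.407), Adar (0.289), Casp8 (0.218), Fadd (-0.0429) and Ripk3 (-0.151). Of the 13649 genes, 321 had a higher r than Mlkl, 906 than Ripk1, 2409 than Adar and 3498 than Casp8. In microglia alone r was 0.952 for Ripk1, 0.889 for Mlkl, 0.871 for Adar, 0.477 for Ripk3, 0.418 for Fadd and -0.136 for Casp8. In the PFC alone it was 0.823 for Ripk1, 0.748 for Mlkl, 0.52 for Casp8, -0.14 for Ripk3, -0.155 for Adar and -0.972 for Fadd. In the co-culture alone it was 0.388 for Fadd, 0.226 for Casp8, 0.157 for Mlkl, 0.101 for Ripk1, -0.0657 for Adar and -0.375 for Ripk3. Libraries of a group share strain and kit but not the sequencing lane. In sc-control microglia, Zbp1 deviated by 0.18 and 0.25 in lane 5 and by -0.21 and -0.23 in lane 6. The interferon-stimulated genes deviated by 0.21 and 0.14, and by -0.12 and -0.23. With anti-miR-99b, Zbp1 did not split by lane (0.16 and -0.25 in lane 5, -0.013 and 0.11 in lane 6). The part of the lane in r was not tested. All r are descriptions, and at 6 to 19 counts of Zbp1 per co-culture library much of the variation there is counting noise.

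**Figure D4:**
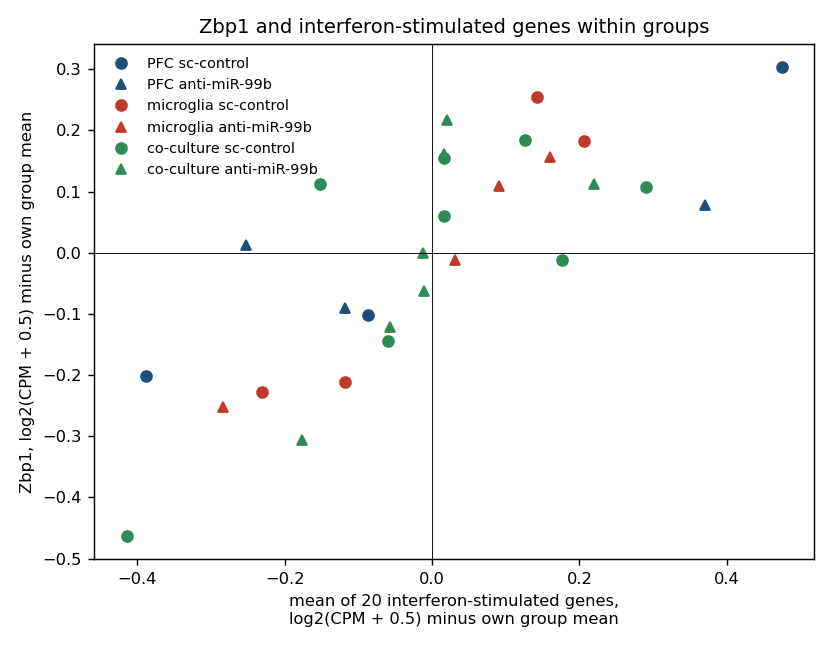
Deviation of Zbp1 (y axis) and of the mean of 20 interferon-stimulated genes (x axis) from their own group means, both as log2(CPM + 0.5), in the 29 libraries, with colour for the experiment, circles for sc-control and triangles for anti-miR-99b. The points run from low left to high right in each colour (r = 0.87, 0.957 and 0.717 in PFC, microglia and co-culture).

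Other genes of these pathways were described from 4 lists with 52 genes, none of which holds one of the 7. In microglia, 4 of the 8 genes for RNA editing and sensing of double-stranded RNA were called higher and 0 lower, beside 0.435% and 0.0535% of all genes tested. Eif2ak2, the kinase that stops translation when it binds double-stranded RNA, rose from 69.4 ± 5.80 to 83.7 ± 3.54 CPM (SD, n = 4, log2 fold change 0.27 ± 0.05, adjusted p = 0.0115). The RNA helicase genes Dhx58 (31.3 ± 3.97 to 41.3 ± 4.79 CPM, log2 fold change 0.41 ± 0.08), Ddx58 (55.7 ± 7.68 to 72.3 ± 8.33 CPM, 0.39 ± 0.07) and Ifih1 (45.6 ± 2.87 to 54.0 ± 4.73 CPM, 0.25 ± 0.05) rose with it. DESeq2 called 2 of these 4, Eif2ak2 and Ifih1, and without sc-control replicate 4 or anti-miR-99b replicate 5 the count was 0. Without sc-control replicate 6 or anti-miR-99b replicate 1 it was 1, and without sc-control replicate 2 it was 6. Over all genes the calls moved too, from 65 higher and 8 lower to 33 and 5 with DESeq2. They were 0 and 2 without sc-control replicate 4, and 2 and 3 without anti-miR-99b replicate 5. Without sc-control replicate 6 they were 6 and 3, and without anti-miR-99b replicate 1 they were 11 and 3. Without sc-control replicate 2 they were 234 and 175. Of the 20 genes of the death receptor and TNF complex, the 14 of apoptosis execution and the 9 tested of 10 of pyroptosis and the inflammasome, 0 were called in microglia, with median log2 fold changes of 0.0080, 0.014 and 0.013 beside 0.0025 over all genes, and 2 of these 43 genes had an unadjusted p under 0.05 (1 higher among the first 20 and 1 lower among the 14, beside 3.4% of all genes higher and 3.04% lower). Of the interferon-stimulated genes, 17 of 20 were called higher in the same libraries (0.435% of all genes tested), with a sum of 1016 to 1322 CPM against 843 to 1068 CPM. Of the 12 microglia markers 0 were called (median log2 fold change 0.015), and of the 9 blood cell markers 6 were at 0 counts in all 8 microglia libraries. Their part in the values of Zbp1 and Adar was not tested.

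In the PFC, 0 of the 51 tested genes of these 4 lists were called by edgeR, 6 had an unadjusted p under 0.05, all higher (5.17% of all genes were higher and 2.47% lower at that p), and DESeq2 called 1, Dhx58. The median log2 fold change was 0.32 for RNA editing and sensing, 0.13 for pyroptosis and the inflammasome, 0.012 for apoptosis execution and -0.016 for the death receptor and TNF complex. In the co-culture, 0 of the 51 tested genes were called by edgeR and 0 by DESeq2. At an unadjusted p under 0.05 there were 4 higher and 2 lower, beside 6.4% and 6.81% of all genes, and the medians of the 4 lists lay between 0.0094 and 0.067.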

How the data were processed

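RNA was extracted from PFC tissue, cultured microglia and neuron-microglia co-cultures, and poly(A) libraries were sequenced as single 50 bp reads. The authors deposited raw read counts per Ensembl gene; per the labels these were made with bcl2fastq 2.20.2, FastQC 0.11.5, STAR 2.5.2b and featureCounts 1.5.1 on mm10. The strand setting and annotation release are not given in the sources used here. Total counts were 24482309 to 36475236 in PFC, 21324156 to 35013400 in microglia and 23269839 to 37901110 in co-culture libraries. At these depths counting error stays large for genes with few counts, such as Ripk3 and Mlkl outside microglia and Zbp1 in the co-culture.

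Groups were taken from the sample labels. Each experiment was fitted with edgeR 4.0.16 (quasi-likelihood test, TMM factors, filterByExpr) in R 4.3.3, with Benjamini-Hochberg adjustment over all genes tested, and all 29 libraries were fitted jointly for differences between experiments. A gene was called at an adjusted p under 0.1 and a log2 fold change beyond 0.2 (PFC) or 0.1 (microglia), or under 0.05 and beyond 0.1 (co-culture); differences of effects needed an adjusted p under 0.05. Two-sided exact permutation tests compared group means of CPM (SciPy 1.17.1). Intervals are the log2 fold change and its SE under a normal distribution. The scripts were tested on simulated data. DESeq2 1.42.0, other factors and filters, blocks, RUVs factors and leaving out libraries were the alternatives.

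The 7 genes, the lists, the markers and the tests were chosen with earlier results of these data known. Text names the 7 genes, the called genes of the pathway lists (up to 5 per experiment), genes that overlap the 7, and the 5 genes with the highest r with Zbp1.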

Additional observations from a re-analysis of the deposited data

Results flagged for a closer look

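The effect of anti-miR-99b on Ripk1 differed between experiments by a test of the difference itself. Its log2 fold change was 0.79 in the PFC, 0.0080 in microglia and 0.12 in the co-culture, and the joint edgeR fit put microglia minus PFC at -0.76 ± 0.11 (adjusted p = 0.000224) and co-culture minus PFC at -0.666 ± 0.12 (adjusted p = 0.00185). Ripk1 itself did not pass the test in the PFC (adjusted p = 0.234). Its SE in that fit was 0.16, larger than the SE of both joint differences, since the joint fit gives all groups one spread per gene. Strain, age and preparation differ with the experiment and cannot be told apart from it. Dixon's test was run on the 7 genes in each of the 4 microglia and co-culture groups, 28 tests in all, and no library stood apart, where chance alone would flag about 1 in 20. The PFC groups, with 3 mice each, were not tested.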

How the results depend on the processing

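The sources give anti-miR-99b and sc-control libraries some of the same replicate numbers, but the numbers did not pair the libraries: deviations from the group means of same-numbered libraries correlated at 0.022 and -0.2 in the PFC, at -0.018 and -0.0252 in microglia and at -0.00304 to 0.0475 in the co-culture. The fit with the replicate number as a block drops every library whose number is in 1 group only. It called 3 of the 7 genes in the PFC, 1 in microglia and 0 in the co-culture, and 6, 4 and 0 pathway genes. With this block the log2 fold change turned sign for Ripk1 in microglia (-0.022) and, in the co-culture, for Zbp1 (-0.17), Adar (0.014) and Gm20559 (-0.30).

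In the PFC, where 0 of the 7 genes and 0 pathway genes were called, DESeq2 called 2 and 1, no filter on low counts 2 and 4, the lane block 2 and 2, and the RUVs factor 2 and 4. Over all genes the calls rose with them, from 15 higher to 85, 297, 73 and 208 in this order, and to 475 with the replicate block. Leaving out 1 library gave 0 to 2 of the 7 and 0 to 2 pathway genes, with 1 to 195 of all genes higher and 0 to 6 lower. In microglia, leaving out 1 library gave 0 to 2 of the 7 genes and 0 to 6 pathway genes, beside 2 and 4, and DESeq2 called 2 pathway genes. Over all genes, leaving out 1 microglia library gave 0 to 234 calls higher and 2 to 175 lower, and DESeq2 gave 33 and 5, beside 65 and 8. In the co-culture 0 of the 7 genes were called under all 9 alternatives, and the RUVs factor called 1 pathway gene. Differences of effects between experiments were called 2 times, 4 with no filter, and differences between sc-control groups 15 times, 7 with at least 10 counts in every library, which removes low genes. Without 1 PFC or microglia library these counts were 2 to 3 and 15.

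Other log2 fold changes that turned sign were close to 0: in the PFC, Adar with upper-quartile factors (0.026) and without 1 library (-0.065 to 0.034), Mettl6 with no filter (-0.0049) and without 1 library (-0.027 to 0.088), and Gm20559 without 1 library (-0.018 to 0.74), and in microglia, without 1 library, Ripk1 (-0.011 to 0.023) and Ripk3 (-0.022 to 0.11). Of 489 fold changes compared, 399 kept direction and call, 18 turned sign, 36 lost and 36 gained a call. The cause was not tested. Low counts limit Ripk3 and Mlkl outside microglia and Zbp1 in the co-culture.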
